A study of Homo sapiens with 2 samples.

Results

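The genes described here are the 3 members of the CYP1 family of cytochromes P450 (CYP1A1, CYP1A2 and CYP1B1), the aryl hydrocarbon receptor (AHR), its partner ARNT, its repressor AHRR, and 2 further genes that the receptor is known to switch on, TIPARP and ALDH3A1. They were read on 2 single-colour Agilent gene expression arrays of HepG2, a line of human liver cancer cells that retains much of the secretory and metabolic activity of hepatocytes. One array held RNA of cells given 1‰ dimethyl sulfoxide (DMSO), the solvent control, and the other held RNA of cells given hawk tea extract (HTE), an ethanol extract of hawk tea leaves redissolved in DMSO, both for 24 h in high-glucose medium with fetal bovine serum. The sample labels give a dose of 200 μg per mL. The published account of this array gives a higher dose, so the dose is uncertain. With 1 array a group there was no test between the groups, and the spread between cultures is unknown.

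Members were the probes whose RefSeq transcript belongs to 1 of these 8 genes. Of the 8 genes, 7 had a matching probe, and they held 11 of the 50532 probes with a value on both arrays. AHRR had no probe matched to its current transcripts and was not analysed here. Probes designed on accessions outside the gene table were left unnamed, and whether 1 of them reads AHRR was not settled. Of the 11 probes, 9 were well above background on both arrays by the flag of the scanner software (called detected below), and 2 (the dimmer probe of CYP1B1 and the dimmer probe of TIPARP) were not well above background on either array. Each of these probes had a single spot.

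AHR is a transcription factor of the bHLH-PAS family that waits in the cytosol with HSP90. When it binds a ligand, such as a polycyclic aromatic hydrocarbon, a dioxin, a tryptophan metabolite or certain plant compounds, it enters the nucleus, pairs with ARNT and binds DNA at the core letters GCGTG. CYP1A1 is its classical target in hepatoma cells, and AHRR and TIPARP are targets that dampen the receptor in turn.

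CYP1A1 and CYP1A2 are neighbours on chromosome 15 that are transcribed away from each other, on opposite strands, with no other gene between them in the gene table of GRCh38.p14. Because these 2 related genes had the highest and one of the lower ratios among the members, the RefSeq sequence around the start site of each is shown, from 250 bases before the start to 50 bases after it (GRCh38.p14; chr15:74725479-74725778 on the minus strand for CYP1A1, and chr15:74748595-74748894 on the plus strand for CYP1A2). Capitals mark GCGTG, searched on both strands, and TATAAA, searched on the printed strand, which do not overlap.
CYP1A1: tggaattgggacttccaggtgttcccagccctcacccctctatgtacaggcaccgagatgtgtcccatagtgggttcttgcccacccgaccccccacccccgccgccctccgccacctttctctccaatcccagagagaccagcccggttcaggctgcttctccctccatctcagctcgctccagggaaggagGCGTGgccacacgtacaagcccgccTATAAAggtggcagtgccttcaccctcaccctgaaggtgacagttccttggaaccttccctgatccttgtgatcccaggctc
CYP1A2: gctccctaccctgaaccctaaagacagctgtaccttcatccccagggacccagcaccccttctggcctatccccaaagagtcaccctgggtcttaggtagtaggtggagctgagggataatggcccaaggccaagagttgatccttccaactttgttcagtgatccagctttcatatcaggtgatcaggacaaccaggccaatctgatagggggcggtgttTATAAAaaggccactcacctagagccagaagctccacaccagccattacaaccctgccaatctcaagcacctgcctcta
Both windows held TATAAA, beginning 32 bases before the start of CYP1A1 and 29 bases before that of CYP1A2. GCGTG occurred once in the window of CYP1A1, beginning 57 bases before the start, and in neither direction in that of CYP1A2. Of the 35116 promoter windows in the reference, 36.5% held GCGTG on either strand, 7.33% held TATAAA and 1.35% held both. Windows were available for 6 of the 8 genes, and 4 of these (CYP1A1, AHR, AHRR and TIPARP) had GCGTG in at least 1 window, against 40.6% of all genes. A gene with several windows has more places to hold it. By window, 5 of the 9 held it, against 36.5% of all windows. That of AHR lay after the start. 1 window of TIPARP, the member with the lowest ratio by brightest probe, held the letters at 2 places on the other strand. The letters are a description of these short windows only, and whether they bear on the ratios was not tested.

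CYP1A1, the monooxygenase that oxidises aromatic hydrocarbons, had a far higher signal on the HTE array. Its probe read a processed signal of 1496 ± 150 on the DMSO array and 21534 ± 2154 on the HTE array, with the error that the scanner software assigns to each. After the 75th percentile of each array had been subtracted from the log2 signal, its level was -1.43 with DMSO and 2.59 with HTE, a log2 ratio of 4.02 or 16.2-fold. These errors gave an error of 0.20 for the ratio, and 2 such errors either side spanned 3.61 to 4.43. The ratio of CYP1A1 was the 8th highest among the 23752 genes and unnamed transcripts detected on at least 1 array, and the 5th highest among the 21000 detected on both. With the brightest probe standing for each gene, CYP1A1 was the only member past 2-fold, 1 of 7. Of all genes, 5.25% were at least 2-fold higher and 3.03% at least 2-fold lower. The dimmer probe of ALDH3A1 was also past 2-fold, as described below. No member was 2-fold lower.

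CYP1A2, the hepatic enzyme that metabolises caffeine, read 482 with DMSO and 505 with HTE. Its log2 ratio was 0.24, with 2 software errors either side from -0.19 to 0.67, a range that includes 0 and lies wholly below that of CYP1A1. CYP1B1, the family member better known outside the liver, read 380.2 and 465, a log2 ratio of 0.46 (0.02 to 0.90). CYP1A2 therefore differed between the arrays by about as much as the error of the spots, and the range of CYP1B1 lay just above 0. The ranges cover the error of reading a spot and not that between cultures. Probe sequences were not used here, and whether the probes of CYP1A1 and CYP1A2 also bind each other's transcript was not tested.

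**Figure D1:**
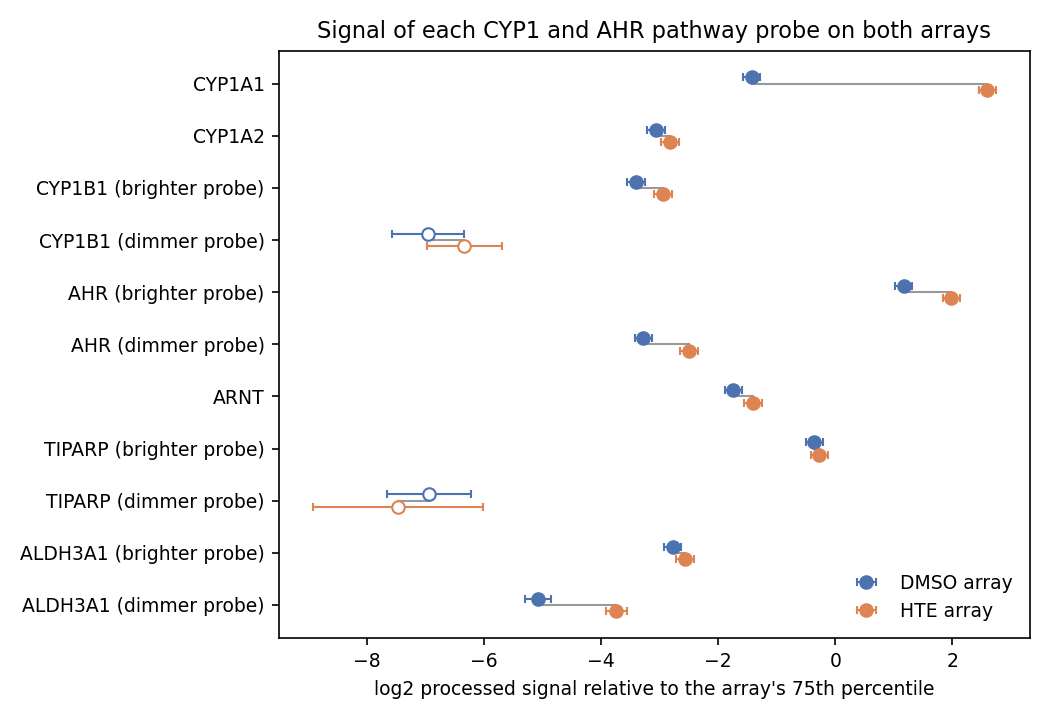
Level of each of the 11 member probes on the DMSO array (blue) and the HTE array (orange), as log2 processed signal relative to the 75th percentile of the array, with bars of 1 software error and open symbols where a probe was not well above background. The pair of CYP1A1 points, at -1.43 and 2.59, stands far apart, the 2 AHR probes shift alike, and only the dimmer of the 2 ALDH3A1 probes shifts by more than 2-fold.

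AHR, the receptor itself, was the member with the next highest ratio, and both of its probes gave nearly the same value. The brighter probe read 9043 with DMSO and 14058 with HTE, which after scaling was a log2 ratio of 0.81 or 1.75-fold (0.40 to 1.22 over 2 software errors either side). The dimmer probe, with signals of 415 and 633, gave 0.78 (0.35 to 1.21). Of all genes, 7.78% had a ratio at least as high as that of the brighter probe, which ranked 1849th of 23752. At a cutoff of 1.5-fold, 2 of the 7 members (CYP1A1 and AHR) were higher, against 12.4% of all genes. ARNT, which pairs with AHR to bind DNA, read 1205 and 1349 and had a log2 ratio of 0.33 (-0.08 to 0.75), a range that includes 0.

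Of the 2 further targets, TIPARP, a mono-ADP-ribosyltransferase that curbs AHR, barely differed between the arrays. Its brighter probe read 3144 with DMSO and 2956 with HTE, a log2 ratio of 0.08 after scaling (-0.33 to 0.49) and of -0.09 without scaling, so its direction was set by the scaling. ALDH3A1, an aldehyde dehydrogenase whose induction by AHR ligands was described in hepatoma cells, gave different answers at its 2 probes. The brighter probe read 586 and 601, a log2 ratio of 0.21 (-0.22 to 0.63), whereas the dimmer probe read 119.8 and 268, a log2 ratio of 1.33 or 2.52-fold (0.76 to 1.91). The 2 ranges do not overlap, and both probes were well above background on both arrays. They were designed on different transcripts of the gene, and which of them reports its total RNA was not tested. For scale, the median SD of the log2 ratio among different probes of a gene was 0.16 over the 3759 genes with 2 or more probes detected on both arrays.

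All 7 measured members had a log2 ratio above 0, against 45.7% of all genes. With spike-in scaling this held for 1 of 7, CYP1A1, and without scaling for 6 of 7. The median of the members was 0.33, against 0.00 for all genes. That share of all genes counts as not above 0 some genes dim on 1 array, whose bound is exactly 0. All 7 members were detected on both arrays, where the median of all genes was -0.0049. By the brightest probe of each, the 4 lowest members were TIPARP (0.08), ALDH3A1 (0.21), CYP1A2 (0.24) and ARNT (0.33). Their software ranges include 0, and their order is not distinguishable. The range of the dimmer probe of ALDH3A1 did not include 0. The genes with a log2 ratio nearest to that of CYP1A1, among named genes detected on both arrays, included IL17B (4.33, from a level of -4.03 to 0.30) and PRECSIT (3.59, from -5.12 to -1.52). With 2 arrays, likeness here is only the difference between 2 ratios.

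**Figure D2:**
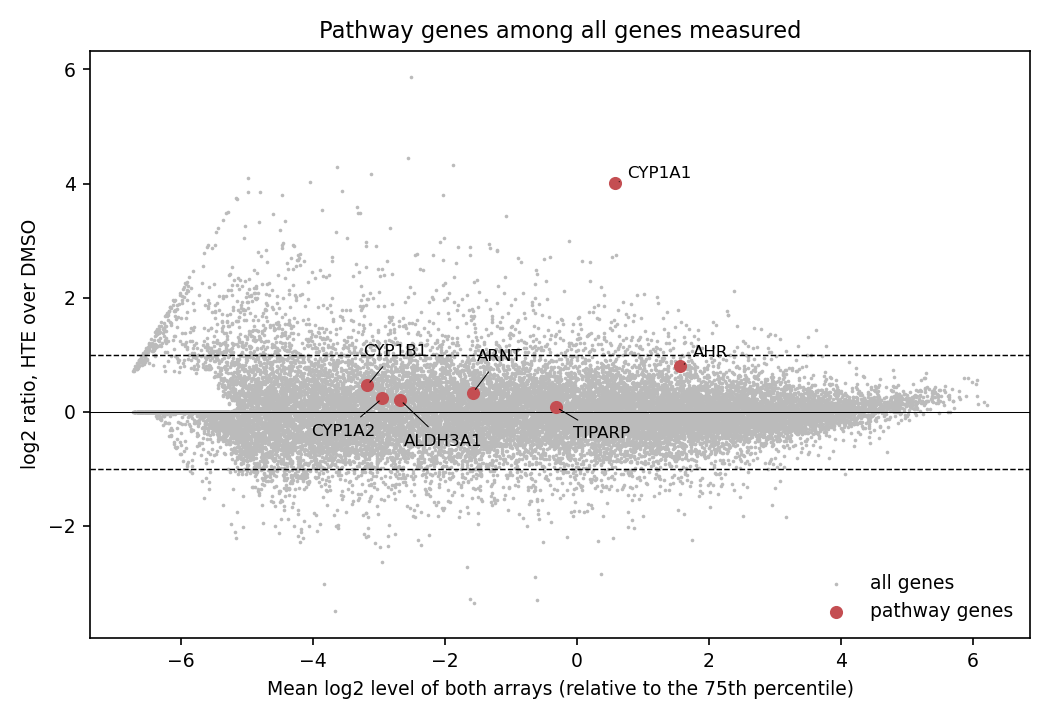
Log2 ratio of HTE over DMSO against the mean log2 level of both arrays for all 23752 genes (grey) and the 7 measured members (red), with dashed lines at 2-fold. CYP1A1 lies at 4.02, and the other 6 lie between 0.08 and 0.81.

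The 2 arrays were similar in reach. Of the 58717 spots that are not controls, 60.6% were well above background with DMSO and 56.6% with HTE, and none was saturated. The 75th percentile was a signal of 4020.0 with DMSO and 3570.3 with HTE. The 8 usable E1A spike-in probes were brighter on the HTE array, by 0.45 to 1.57 on the unscaled log2 scale, and scaling to them lowered the median of all genes by 1.22. Under that scaling CYP1A1 was still higher (2.80), while AHR stood at -0.41 and the other members were between -1.14 and -0.76. The median of genes detected on both arrays was then -1.22, below every measured member, with TIPARP (-1.14) closest to it. Of 8 hepatocyte markers, all 8 were well above background on both arrays, with log2 ratios from -0.36 (FGB, a fibrinogen chain) to 0.21 (SERPINA1, a secreted protease inhibitor). Of 8 markers of other cells, 7 were detected on at least 1 array and CD3E, the T cell marker, on neither. The log2 ratios of the 7 ran from -1.82 for PECAM1, an endothelial adhesion molecule, to 1.24 for NPHS1, a podocyte protein, both past 2-fold. NPHS1 was dim, with signals of 89.4 with DMSO and 187 with HTE. Among all genes, 5.25% were 2-fold higher and 3.03% lower. The part of these markers in the values above was not tested. RNA of a culture is read as a whole, so that fewer cells of a type and less RNA per cell cannot be told apart.

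Genes outside the members that the receptor is known to regulate did not shift together. Of 18 such genes, 15 were measured. A log2 ratio above 0 was seen for 9, against 45.7% of all genes, and below 0 for 6. The median of the 15 was 0.03. EREG, which encodes the growth factor epiregulin, was 3.16-fold higher (log2 ratio of 1.66). It was dim, with signals of 86.8 with DMSO and 243 with HTE. CCNG2, which encodes the growth-inhibitory cyclin G2, was 2.78-fold higher (1.47, signals of 167 and 412) at its only probe well above background. Neither was past 2-fold with spike-in scaling (0.44 and 0.26), nor was EREG with normexp background correction (0.97). These 2 of 15 compare with the 5.25% of all genes that were 2-fold higher, and with so few genes nothing is read from the share. None was 2-fold lower, where 3.03% of all genes were. The list holds genes that other pathways also regulate.

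For the machinery that holds and serves the receptor, the list medians were near 0. Of 11 chaperones and co-regulators, 2 had a ratio above 0, against 45.7% of all genes, and 9 were below 0, with a median of -0.10. None was past 2-fold, where 5.25% of all genes were higher and 3.03% lower. With so few genes nothing is read from these shares. The lowest was NCOA3, a coactivator of nuclear receptors, at -0.76 (-0.89 to -0.63 over 2 software errors either side). Among the other bHLH-PAS genes, 10 of 13 were measured, 9 of them detected on both arrays. These 9 ran from -0.40 (BMAL2, a partner of CLOCK) to 0.26 (SIM2, a developmental transcription factor), again with none past 2-fold. SIM1, dim with HTE, gave only a bound of -0.33 or lower, and -0.91 by its own dim value. Of the proteins that pass electrons to P450 enzymes, 3 of 4 genes were measured, with CYB5R3 (cytochrome b5 reductase) at 0.19 and CYB5B (an outer mitochondrial cytochrome b5) at -0.44. The dimmer probe of CYB5R3, also detected on both arrays, gave 0.87 (0.46 to 1.28 over 2 software errors either side). The other ALDH3 genes, ALDH3A2 and ALDH3B1, were both at -0.08.

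Tryptophan breakdown through kynurenine yields known AHR ligands. Of 8 genes of this route, 5 were measured and 2 of these, TDO2 and KYNU, were at least 2-fold higher, where 5.25% of all genes were, and with so few genes nothing is read from the share. TDO2, the hepatic dioxygenase that opens the tryptophan ring, was not well above background with DMSO (signal of 16.0) and was well above it with HTE (447). With the dimmest detected spot of the DMSO array as the floor, it was at least 7.55-fold higher with HTE (log2 bound of 2.92). That bound depends on the processing, with a log2 ratio of 1.70 under normexp background correction or spike-in scaling, and TDO2 entered the list through the HTE array alone. KYNU, which cleaves kynurenines, read 3859 with DMSO and 10875 with HTE, 3.17-fold higher after scaling (log2 ratio of 1.67, 1.26 to 2.07 over 2 software errors either side). With spike-in scaling it was 0.45 and no longer past 2-fold. The other 3 measured genes, AADAT, AFMID and IL4I1, had ratios of 0.10, 0.11 and 0.24, although 1 of the other probes of AFMID, designed on a noncoding transcript, gave -1.37. IDO1, IDO2 and KMO were not well above background on either array. The arrays measure RNA and not kynurenine.

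**Figure D3:**
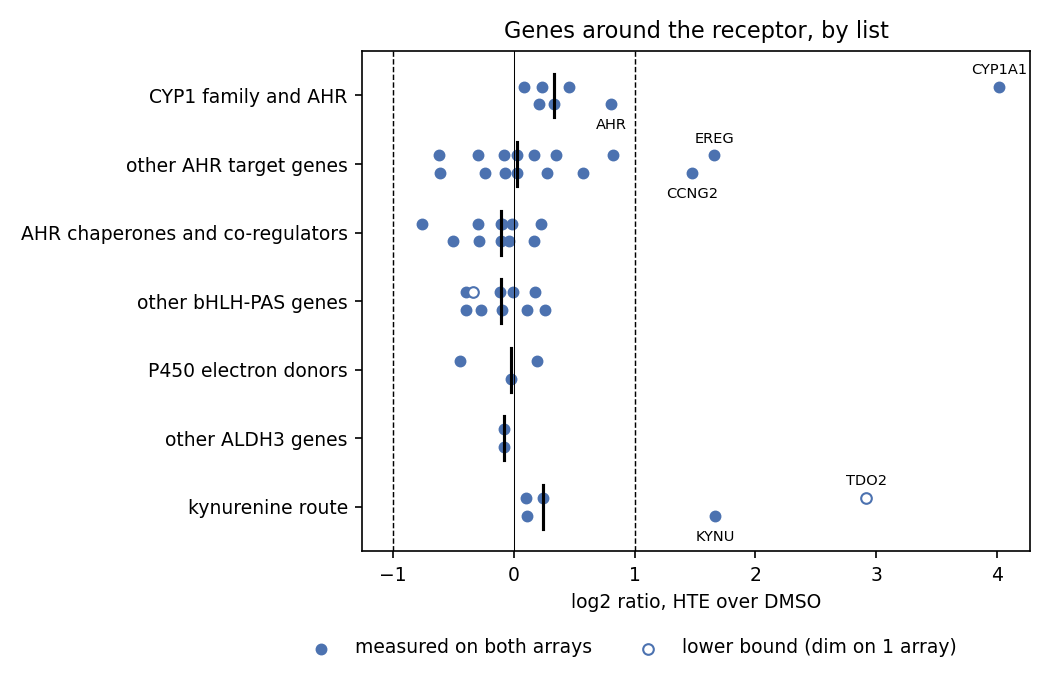
Log2 ratio of HTE over DMSO for each measured gene of 7 lists, with the list median as a black bar, dashed lines at 2-fold and open symbols for bounds. The open symbol of TDO2 is a lower bound. That of SIM1, at -0.33 and dim with HTE, is an upper bound. CYP1A1 at 4.02 and TDO2 at a bound of 2.92 lie farthest to the right, and KYNU, EREG and CCNG2 lie between 1.47 and 1.67. Every other plotted point lies within 2-fold.

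CYP1A1 stayed above 2-fold under every one of the 12 alternative ways of processing that were run for it, from 2.80 with spike-in scaling to 4.05 with a loess curve. AHR stayed above 0 in 12 of its 13 alternatives, from 0.64 to 0.85, and was below 0 with spike-in scaling alone. The values of CYP1A2, CYP1B1, ARNT and ALDH3A1 also stayed above 0 in all but spike-in scaling, and TIPARP was below 0 there and without scaling.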

How the data were processed

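RNA of HepG2 cells was labelled with Cy3 and hybridised to Agilent SurePrint G3 human arrays, 1 for DMSO and 1 for HTE, on the same slide and in the same scan. The deposited scanner tables came from Agilent Feature Extraction (11.5.1.1 per the file headers, 10.7 per the labels). The deposited intensity used here was the processed signal, from which the software had removed background and a spatial trend, giving spots near background a surrogate value, with no scaling between arrays. The flag for spots well above background and the error of each signal come from the same software.

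Control and outlier spots were left out, log2 signals were lowered by the 75th percentile of each array, and spots of a probe were averaged. The 67 of 50599 probes with only outlier spots on an array were dropped. A probe had to be well above background on 1 array or both (29680 probes). A probe dim on 1 array gave a bound against the higher of its own signal and the lowest signal well above background there. Probes were named through RefSeq accessions in the GRCh38.p14 gene table, which held 24523 of 25196 with an NM_ accession. The arrays were annotated on another build, so no coordinates were taken for probes. The brightest probe stood for a gene in counts, and a log2 ratio of 1 (2-fold, the cutoff in the study's methods) was called past the cutoff. The median SD of the log2 ratio among replicate spots was 0.05 over 688 probes with at least 5 usable spots. The number of arrays, 1 a group, limits the precision.

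The members and the gene lists were chosen with earlier results of these data known. Named genes were all members, the genes of each list around the receptor past 2-fold or otherwise its highest and lowest, and the 3 genes with ratios nearest to CYP1A1, of which 1 is not reported here, nor is the highest value of 1 list. UGT1A1, POR and ALDH3B2 had no matched probe, and CYP1B1 and ALDH3A1 had no promoter window. The steps were tested on simulated data, a noisy copy of the DMSO array with some brighter genes shifted. The copy kept the background flags and brightness of that array, so bounds for dim probes and differences in brightness between arrays were not tested. Alternatives were other scalings (median, none, quantile, E1A spike-in, loess with a span of 0.3), normexp (offset 50, on the median spot signal), the median ratio of spots within 7 rows and columns, other filters and bounds, outliers kept, the mean over probes, and other cutoffs. Use of a second probe was chosen after seeing the data. Python 3.11.15 (numpy 2.4.6, pandas 2.3.3, statsmodels 0.14.6, matplotlib 3.10.9) and R 4.3.3 with limma 3.58.1 were used.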

Additional observations from a re-analysis of the deposited data

How the results depend on the processing

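The log2 ratio of CYP1A1 was 3.94 with scaling to the median, 3.85 without scaling and 2.80 with E1A spike-in scaling, and moved by less than the replicate-spot SD under the other alternatives. The number of members at least 2-fold higher was 2 at a 1.5-fold cutoff and 1 under the other alternatives it was counted for. The number at least 2-fold lower was 2 of 7 (TIPARP and ALDH3A1) with spike-in scaling and 0 under the others. With spike-in scaling 16122 of all 23752 genes were 2-fold lower, so nothing about the members is read from that count. These counts were not made with the other probe of a gene, where ALDH3A1 too was past 2-fold. With spike-in scaling 0 of the 15 other AHR targets were 2-fold higher and 9 were 2-fold lower. Of the 23752 genes, 142 were higher and 16122 lower under that scaling, so nothing about the targets is read from the 9. With normexp 1 target was higher, at a 3-fold cutoff 1 was higher, and at a 1.5-fold cutoff 2 were lower. The counts of all genes under these settings follow below. The value of EREG was 0.97 with normexp, and with spike-in scaling EREG, CCNG2 and KYNU were at 0.44, 0.26 and 0.45. For all genes, those higher and lower were 883 and 1209 without scaling (42.2% of changed genes higher, against 63.4%), 142 and 16122 with spike-in scaling, 825 and 468 with normexp, 2390 and 1868 without a filter on dim probes, 2953 and 2505 at 1.5-fold, and 422 and 129 at 3-fold. With the own value of dim probes, 1320 were lower and 1341 higher (50.4% higher). No scaling lowered the median of all genes by 0.17. ALDH3A1 was 0.77 with the mean over its probes and 1.33 with its other probe. TIPARP was -0.09 without scaling. TDO2 ranged from 1.70 with normexp or spike-in scaling to 4.97 with its own dim value. The cause was not tested for any of these, apart from the common shift of a scaling. No paired analysis was possible because there was 1 array a group. Signal over background limits the dim genes, and the dimmer probes of CYP1B1 and TIPARP give no usable ratio.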
